A study of Mus musculus with 19 samples.

Results

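Mitochondrial ribosomal protein genes were followed across 3 thymocyte populations of mice that lack the mTORC1 subunit Raptor in lymphocytes. Members were all genes with a symbol of the form Mrpl or Mrps plus a number, read by a probe set with that single symbol. A gene with several such probe sets was read from the brightest, judged by the mean of the 19 arrays. This gave 71 genes of the 22180 genes measured, 43 with a large-subunit symbol (Mrpl) and 28 with a small-subunit symbol (Mrps). The RefSeq gene table holds 78 such genes. The other 7 (Mrpl30, Mrpl33, Mrpl41, Mrpl43, Mrpl44, Mrpl53 and Mrps6) lay only on probe sets shared with another symbol and were not analysed here.

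The study sorted thymocytes from C57BL/6 mice of genotype Rptor-/-, made by crossing CD2-cre with Raptorfl/fl mice, and from WT mice. Immature single-positive (ISP) cells, an intermediate stage of the αβ branch, were sorted as CD4-, CD8+ and TCRβ- (3 Rptor-/- and 4 WT arrays). DN3a cells, the precursors in which T cell receptor genes are rearranged, were CD25 high and lacked CD44 and CD28 (3 arrays of each genotype). γδ T cells were taken as negative for NK1.1, Gr1, TCRβ, CD8 and CD4 (3 arrays of each genotype), and each array used 12 ng of RNA. The CD2 promoter drives Cre broadly in lymphoid cells, not in the studied populations alone. The labels do not say whether the WT mice carried Cre, nor the age of the mice or whether RNA of several mice was pooled. The labels do not state whether replicates are separate animals, and p-values cover the spread between these arrays, which may be technical.

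The mitochondrial ribosome translates the few messenger RNAs of the mitochondrial genome, all of which encode core subunits of the respiratory chain and ATP synthase. Its RNAs come from the mitochondrial genome, but all its proteins are encoded in the nucleus, translated in the cytosol and imported. Some descend from bacterial ribosomal proteins and others were added in mitochondria. mTORC1 is a growth-sensing kinase complex for which Raptor recruits substrates, and it is known to raise the translation of many nuclear-encoded mitochondrial proteins.

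Values are log2 signals after robust multi-array averaging (RMA), and a difference is Rptor-/- minus WT on that scale. The 7 ISP arrays had medians between 3.80 and 3.88 and the 12 others between 6.03 and 6.13, so ISP levels were not set against those of the other populations. On the ISP arrays 12 of 71 members and 62.0% of all genes had identical values on 2 or more arrays, against 0 members and 0.803% of genes on the DN3a and γδ arrays. Such ties narrow the spread within a group, and their cause was not tested. Of the marker genes, Il2ra in WT cells averaged 9.09 in γδ T cells against 12.6 in DN3a cells, Il2rb averaged 11.1 in γδ T cells against 5.85 in DN3a cells, and Cd8a averaged 11.3 in ISP cells. Cd8b1, which encodes a chain of CD8, averaged 8.81 in WT γδ T cells, which were sorted as lacking CD8, and 7.34 in WT DN3a cells. Of the B cell, myeloid, dendritic and stromal markers measured, none was called in ISP cells between genotypes, while Lyz2 (by 1.04) and Epcam (by 0.67) were higher in Rptor-/- DN3a cells (limma adjusted p of 0.00346 and 0.00386); their part in the results was not tested. In bulk samples, fewer cells of one kind and less RNA per cell cannot be told apart.

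Rptor itself was lower in Rptor-/- cells of each population. In ISP cells it read 6.06, 6.19 and 6.34 in Rptor-/- arrays, against 6.49, 6.47, 6.34 and 6.48 in WT arrays, so that the highest Rptor-/- array met the lowest WT array. In DN3a cells it read 9.65, 9.55 and 9.75 in Rptor-/- arrays, against 10.34, 10.21 and 10.16 in WT arrays. In γδ T cells it read 9.48, 9.52 and 9.40 in Rptor-/- arrays, against 9.79, 9.77 and 9.74 in WT arrays, with no overlap in either. The differences were -0.24 (ISP, limma adjusted p = 0.0384), -0.58 (DN3a, 5.98e-04) and -0.30 (γδ, 0.0489). The exact two-sided permutation p was 0.0571 for ISP cells, the smallest these values allow, given the equal values of 2 arrays of unlike genotype. It was 0.1 for each of the others, the smallest these group sizes allow. The part of the transcript that the probe set reads is unknown here, so the remaining signal does not measure the completeness of the deletion. Leaving out any one γδ array, or any of 5 of the 7 ISP arrays (all but Rptor-/- array 3 and WT array 3), ended the Rptor call there, with differences between -0.33 and -0.18.

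Mitochondrial ribosomal protein transcripts of both subunits were lower in Rptor-/- than in WT ISP cells. Of the 71 members 52 fell, 0 rose and 19 were not called (limma, Benjamini-Hochberg adjustment over all 22180 genes, threshold 0.05). Over all genes 6.57% were called lower and 5.87% higher. The median difference of the members was -0.39, which compares with -0.0039 over all genes, and 68 of 71 members were below 0. On 54 members every Rptor-/- array read below every WT array, which held for 8.95% of all genes. Among the genes without tied ISP values, an alternative chosen after seeing the data, 52 of 59 members and 19.3% of 8427 genes were called lower.

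Markers of the thymocyte stages changed on the same ISP arrays. Of the 5 DN3a markers 4 were higher in Rptor-/- ISP cells, namely the Notch target Dtx1 by 1.81 (limma adjusted p = 1.07e-09), Ptcra by 0.63 (3.06e-04), Notch1 by 0.56 (9.32e-04) and Il2ra by 0.48 (0.0303), and Rag2 (0.37) was not called. The mean log2 level of these 5 genes lay between 8.30 and 8.41 in Rptor-/- ISP arrays and between 7.50 and 7.71 in WT ISP arrays. Of the 4 γδ markers Id3 was lower (difference -2.29, limma adjusted p = 1.07e-09), and Sox13 (0.14), Il2rb (0.044) and Cd28 (0.034) were not called. Of the ISP markers Cd24a was lower (-0.51, 2.35e-04), while Cd8a, Cd8b1 and Mki67 were not called. The part of these stage markers in the ISP values of the members was not tested.

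**Figure D1:**
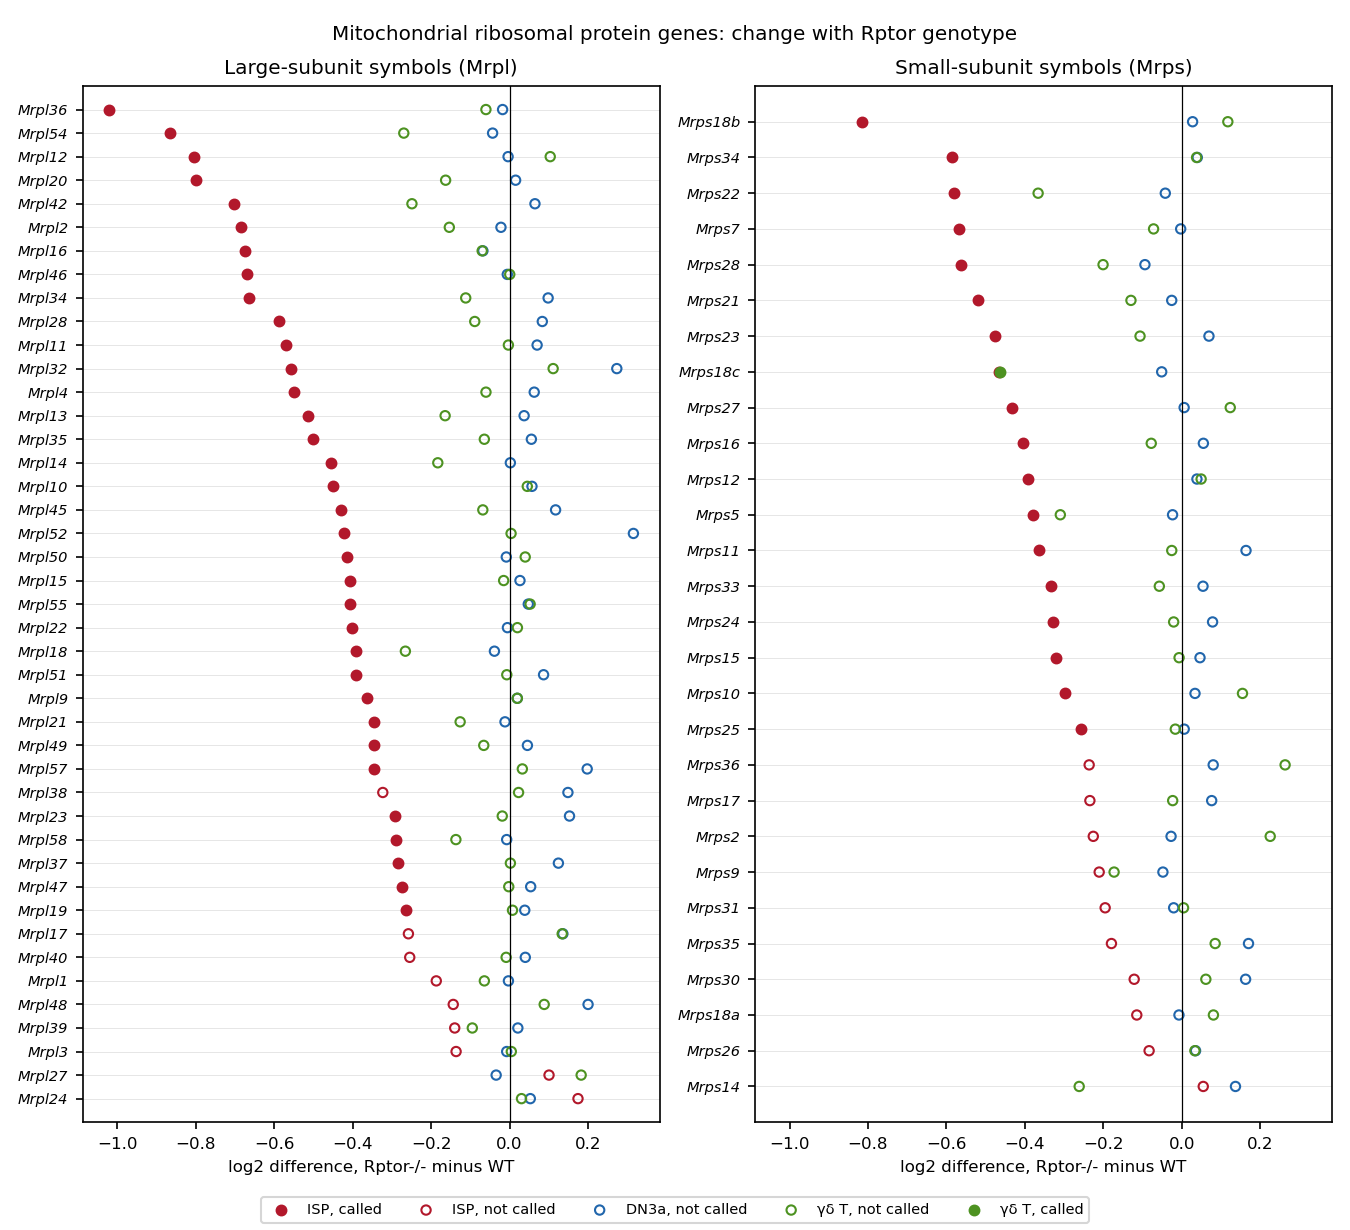
Difference between Rptor-/- and WT arrays on the log2 scale (x axis) for each of the 71 genes, large-subunit symbols on the left and small-subunit symbols on the right, in ISP (red), DN3a (blue) and γδ T cells (green); filled points passed the limma threshold. The ISP points run between -1.02 and 0.17, with 52 filled, and the DN3a points between -0.094 and 0.32, with none filled.

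The shift was present on every Rptor-/- ISP array. Averaged over the members and set against the WT group mean, the ISP Rptor-/- arrays stood at -0.34, -0.39 and -0.45. The WT arrays stood at -0.059, -0.015, 0.12 and -0.045. The groups did not overlap, and WT array 3 was the highest of the WT arrays. Averaged over all genes, the Rptor-/- arrays lay within 0.0076 of the WT mean. RMA normalizes arrays to each other, so this mean cannot show whether total RNA changed. Without Rptor-/- array 3 the number of members called lower was 36, and without WT array 3 it was 40; of the 52 calls, 30 held whichever array was left out. When the spread was estimated from the 7 ISP arrays alone, 32 members and 749 genes were called lower.

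**Figure D2:**
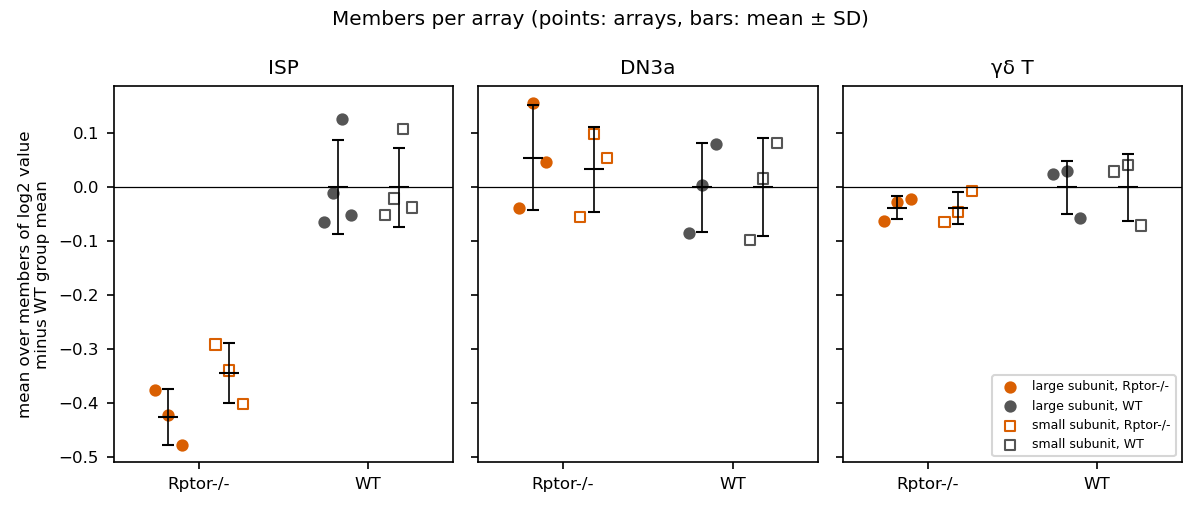
Mean over the large-subunit (filled circles) and small-subunit genes (open squares) of each array's log2 value minus the WT group mean of the gene, in ISP, DN3a and γδ T cells, with Rptor-/- left of WT; bars are mean ± SD over arrays. In ISP cells all Rptor-/- arrays lie below all WT arrays for both subunits; in DN3a and γδ T cells the genotypes overlap.

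Of the 8 members with the largest called change in ISP cells, 7 had large-subunit symbols. Mrpl36, the counterpart of the small zinc-binding bacterial protein L36, read 7.65, 7.40 and 7.43 in Rptor-/- ISP arrays, against 8.44, 8.31, 8.80 and 8.50 in WT arrays. The groups lay apart by more than the range within either, and Mrpl36 fell by 1.02 ± 0.104 (SE; limma adjusted p = 2.68e-06), to 49.3% of the WT signal. Mrpl12, the stalk protein to which translation factors bind, read 8.02, 8.10 and 7.90 in Rptor-/- ISP arrays, against 8.69, 8.87, 8.94 and 8.75 in WT arrays. It too showed a gap wider than the spread, with a difference of -0.81 ± 0.0895 (SE; limma adjusted p = 5.32e-06). Mrpl20, counterpart of a bacterial protein that binds ribosomal RNA early in assembly, read 6.54, 6.39 and 6.32 in Rptor-/- arrays, against 7.29, 7.11, 7.36 and 7.10 in WT arrays. Its Rptor-/- arrays were all lower, and the difference was -0.80 (adjusted p = 8.22e-06).

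A pair of proteins that lie close to the peptidyl transferase centre, Mrpl2 and Mrpl16, also fell. Mrpl2 read 7.61, 7.64 and 7.27 in Rptor-/- ISP arrays, against 8.14, 8.30, 8.26 and 8.05 in WT arrays (difference -0.68). Mrpl16 read 7.40, 7.12 and 7.05 in Rptor-/- arrays, against 7.71, 7.95, 7.86 and 7.94 in WT arrays (difference -0.67). In both genes 1 Rptor-/- array stood apart from the other 2 (array 3 was low for Mrpl2 and array 1 high for Mrpl16), yet the genotypes did not overlap. Mrpl54 and Mrpl42 are large-subunit proteins with no bacterial counterpart. Mrpl54 read 8.27, 8.15 and 8.22 in Rptor-/- ISP arrays, against 8.81, 9.03, 9.40 and 9.08 in WT arrays, a difference of -0.86. Mrpl42 read 9.28, 9.13 and 9.17 in Rptor-/- arrays, against 9.80, 9.76, 10.06 and 9.96 in WT arrays, a difference of -0.70. For these 4 genes limma's adjusted p was between 3.46e-05 and 7.27e-05.

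**Figure D3:**
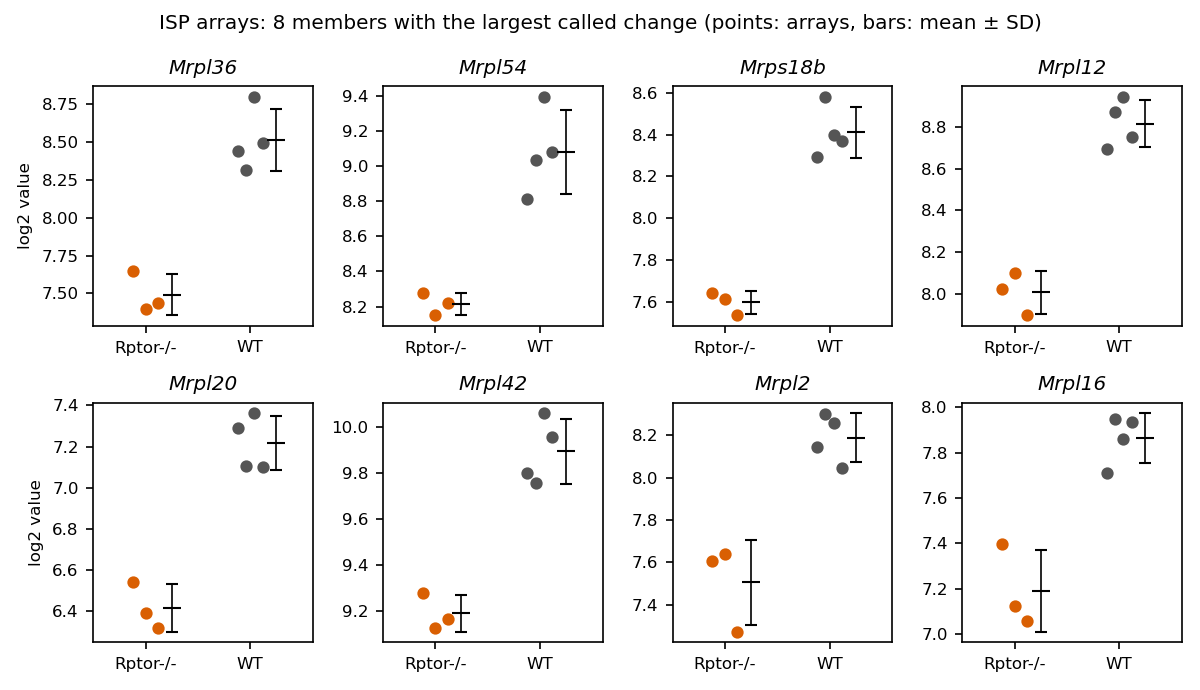
RMA log2 value of the 8 members with the largest called difference on each ISP array (points), with Rptor-/- left of WT and the mean ± SD beside the points; each panel has its own vertical range. In all 8 panels the 3 Rptor-/- arrays lie below the 4 WT arrays.

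The promoters of the 4 genes with the largest change that had a RefSeq window are shown because these genes fell together. They are the 150 bases before the annotated start on mouse assembly GRCm38.p6, read 5′ to 3′ on the gene's strand: chr13:73330859-73331008 (+ strand) for Mrpl36, chr17:35916441-35916590 (- strand) for Mrps18b, chr11:120484487-120484636 (+ strand) for Mrpl12, chr4:155802728-155802877 (+ strand) for Mrpl20. Sequence patterns known from promoters of growth and mitochondrial genes were searched on both strands: an E-box CACGTG (the pattern of MYC and related factors), CGCATGCG (the core of NRF1 sites), CCGGAAG (an ETS core) and AAGATGG (a YY1 core). Capitals mark the matches.
Mrpl36 promoter: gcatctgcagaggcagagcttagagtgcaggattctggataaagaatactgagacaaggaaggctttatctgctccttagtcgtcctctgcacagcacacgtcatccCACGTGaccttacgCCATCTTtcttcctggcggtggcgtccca
Mrps18b promoter: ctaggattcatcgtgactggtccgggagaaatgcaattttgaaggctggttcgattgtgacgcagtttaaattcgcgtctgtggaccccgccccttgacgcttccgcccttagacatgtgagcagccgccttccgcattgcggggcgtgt
Mrpl12 promoter: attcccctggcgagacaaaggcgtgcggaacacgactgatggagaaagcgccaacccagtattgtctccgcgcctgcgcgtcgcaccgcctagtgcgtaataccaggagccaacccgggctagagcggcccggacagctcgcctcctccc
Mrpl20 promoter: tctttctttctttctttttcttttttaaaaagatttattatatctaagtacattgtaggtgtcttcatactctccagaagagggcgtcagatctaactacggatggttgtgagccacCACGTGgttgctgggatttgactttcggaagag
Mrpl36 held the E-box 43 bases and the YY1 core, on the opposite strand, 29 bases before the start, and Mrpl20 held the E-box 33 bases before it. The 150 bases printed for Mrps18b and Mrpl12 held none of these letters, but the longer window of Mrps18b described next held the ETS core and the NRF1 core.

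Of the members, 62 had a RefSeq window, which runs from 250 bases before to 50 after the start. The ETS core was found in 37.1% of them, against 12.95% of protein-coding genes, the YY1 core in 20.97% against 7.18%, and the NRF1 core in 11.29% against 2.77%. The E-box was found in 5 members (Mrpl2, Mrpl20, Mrpl36, Mrpl37 and Mrps18c), or 8.06%, against 8.91% of protein-coding genes. All 5 were called lower in ISP cells, with a median of -0.68, and of the 57 without it 40 were called, with a median of -0.36. Of the 13 members with the YY1 core 12 were called, with a median of -0.42, and of the 49 without it 33, with a median of -0.35. With the NRF1 core 5 of 7 were called (median -0.40), and without it 40 of 55 (-0.36). With the ETS core 17 of 23 were called (median -0.39), and without it 28 of 39 (-0.36). Myc itself was not called in ISP cells (difference -0.024, limma adjusted p = 0.954). The part of these patterns in the ISP values was not tested. A match is a description of the letters in the window and not a binding site.

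Below the 8 largest changes came 13 further members that fell by 0.5 or more on the log2 scale. In the large subunit these were Mrpl46, Mrpl34, Mrpl28, Mrpl11, Mrpl32, Mrpl4, Mrpl13 and Mrpl35, with differences between -0.67 and -0.50. In the small subunit they were Mrps34, Mrps22, Mrps7, Mrps28 and Mrps21, with differences between -0.59 and -0.52. The call of Mrpl32 was lost without Rptor-/- array 1 or 2 or WT array 3, and that of Mrps21 without Rptor-/- array 2. Of the 34 members between -0.5 and -0.25, 31 were called, 22 of the 34 being large-subunit and 12 small-subunit genes. Of the 16 members above -0.25, 0 were called. The members that missed the threshold at the largest size were Mrpl38 (-0.32, limma adjusted p = 0.0532), Mrpl17 (-0.26, 0.0722) and Mrpl40 (-0.25, 0.0853).

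A difference above 0 was measured for 3 members. Mrpl24 read 9.31, 9.24 and 9.37 in Rptor-/- ISP arrays, against 9.06, 9.18, 9.12 and 9.17 in WT arrays, so that every Rptor-/- array was higher. Its difference of 0.17 was not called (limma adjusted p = 0.105), but passed the threshold when low-signal genes were left out and with limma's intensity trend and robust options. Mrpl27, counterpart of a bacterial protein that reaches to the peptidyl transferase centre, had a difference of 0.10, and Mrps14 of 0.054; in both the genotypes overlapped and neither was called.

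Large-subunit genes were called lower in ISP cells in 34 of 43 cases (79.1%) and small-subunit genes in 18 of 28 (64.3%). Their median differences were -0.41 and -0.33. Averaged on each array, the large-subunit deviation was below the small-subunit one by 0.084, 0.083 and 0.077 in the Rptor-/- arrays. In the WT arrays large minus small was -0.014, 0.0097, 0.017 and -0.013, so the genotypes did not overlap, although the gap was small beside the shift of either subunit. It rests in part on names. Mrps30 and Mrps18a carry small-subunit symbols but lie in the large subunit, and Mrps36 is now known as a component of 2-oxoglutarate dehydrogenase. With these genes placed by position, 34 of 45 large-subunit (75.6%) and 18 of 25 small-subunit genes (72%) were called lower, and the difference of the medians was -0.037 where it was -0.075 by symbol. For the gap by symbol, leaving out 1 array gave -0.107 to -0.042.

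Those 3 genes with misleading names were among the members that were not called in ISP cells. Mrps30 read 7.64, 7.74 and 7.58 in Rptor-/- arrays, against 7.74, 7.84, 7.76 and 7.76 in WT arrays, a difference of -0.12. Mrps36 read 4.85, 4.64 and 4.96 in Rptor-/- arrays, against 4.79, 4.74, 5.38 and 5.30 in WT arrays, a difference of -0.24. Both overlapped between genotypes, and Mrps36 had a low signal and a wide spread in WT arrays.

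By ancestry, 23 of 28 large-subunit genes with a bacterial counterpart were called lower in ISP cells, with a median of -0.43, and 11 of 15 without one, with a median of -0.35. Among small-subunit symbols the counts were 12 of 17 with a bacterial counterpart (median -0.36) and 6 of 11 without (median -0.26). The 17 include Mrps18a and the 11 include Mrps30 and Mrps36, which do not lie in the small subunit and were not called. These groups were not tested against each other. Mrps12, which lines the decoding centre of the small subunit, read 8.33, 8.35 and 8.15 in Rptor-/- ISP arrays, against 8.63, 8.69, 8.83 and 8.53 in WT arrays, a difference of -0.39 (limma adjusted p = 0.00282). Mrpl58, a peptidyl-tRNA hydrolase that became part of the large subunit, read 8.73, 8.70 and 8.58 in Rptor-/- arrays, against 8.94, 9.03, 8.91 and 8.95 in WT arrays, a difference of -0.29 (adjusted p = 0.00942). In both genes all Rptor-/- arrays were the lower ones, and the call of Mrpl58 was lost without Rptor-/- array 3.

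The 3 Mrps18 genes, paralogues of one bacterial protein S18, had differences between -0.81 and -0.11 in ISP cells. Mrps18b read 7.64, 7.61 and 7.54 in Rptor-/- ISP arrays, against 8.30, 8.58, 8.40 and 8.37 in WT arrays, with a difference of -0.81 ± 0.0936 (SE; limma adjusted p = 7.51e-06). Mrps18c read 6.89, 6.81 and 6.61 in Rptor-/- arrays, against 7.24, 7.02, 7.34 and 7.35 in WT arrays, with a difference of -0.47 (adjusted p = 0.00265). Mrps18a, the paralogue that lies in the large subunit, read 7.87, 8.01 and 7.99 in Rptor-/- arrays, against 8.10, 8.01, 8.15 and 8.01 in WT arrays, with a difference of -0.11 that was not called. The arrays of Mrps18b and Mrps18c were separated by genotype, while those of Mrps18a nearly met.

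**Figure D4:**
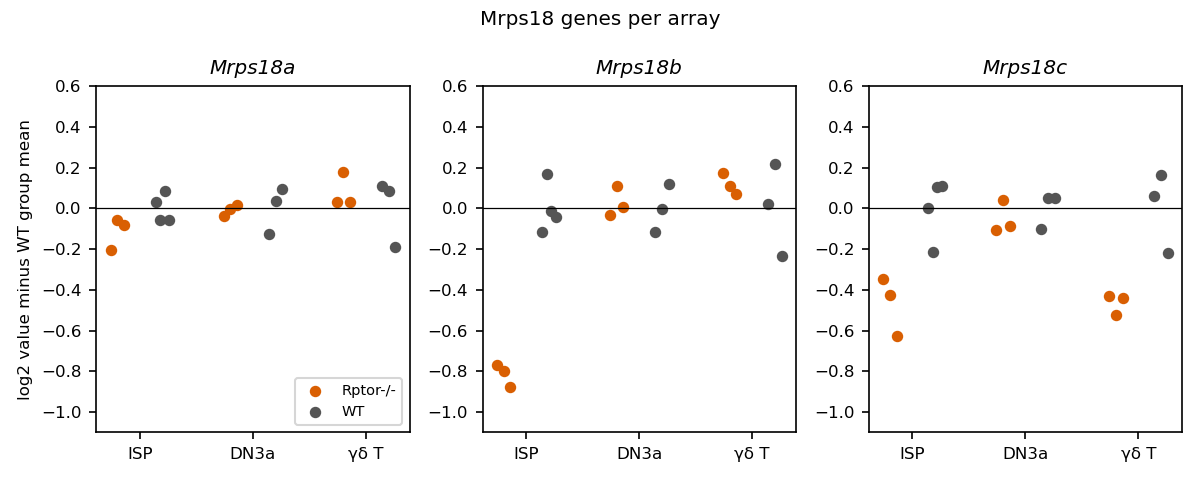
Log2 value minus the WT group mean of the population for Mrps18a, Mrps18b and Mrps18c on each array of ISP, DN3a and γδ T cells, Rptor-/- in orange left of WT in grey. Mrps18b was called lower in ISP cells (-0.81), Mrps18c in ISP (-0.47) and γδ T cells (-0.46), and Mrps18a in none of the 3 populations.

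A second probe set was present for 9 members, and in all 9 its ISP difference had the sign of the one used. In 4 pairs the ISP differences lay 0.3 or more apart: Mrpl47 read -0.27 with the probe set used and -0.67 with the second, Mrpl10 -0.45 and -0.066, Mrpl12 -0.81 and -0.46, and Mrps18c -0.47 and -0.14. The pairs were closer for Mrps16 (-0.41 and -0.65), Mrps5 (-0.38 and -0.22), Mrpl36 (-1.02 and -1.15), Mrps18b (-0.81 and -0.73) and Mrps17 (-0.23 with both). In 3 genes the brighter probe set of WT DN3a cells was the dimmer one of WT ISP cells. The probe sets of Mrpl36 averaged 8.93 and 5.73 in WT DN3a cells and 8.51 and 8.84 in WT ISP cells. Those of Mrpl47 averaged 8.41 and 6.599 in WT DN3a cells and 5.59 and 7.97 in WT ISP cells. Those of Mrps17 averaged 9.32 and 5.43 in WT DN3a cells and 7.72 and 8.39 in WT ISP cells. The cause was not tested.

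In DN3a cells no member was called. Over all genes 0.983% were called there in either direction. The member median was 0.038, with 24 members below 0 and 47 above, and at an unadjusted p under 0.05 in limma there were 0 lower and 2 higher members, with 4.22% of all genes lower and 6.33% higher. Averaged over members, the Rptor-/- DN3a arrays stood at -0.044, 0.13 and 0.050 from the WT mean and the WT arrays at -0.090, 0.0093 and 0.080, so the genotypes overlapped. These 2 members were Mrpl52 and Mrpl48. Mrpl52, a large-subunit protein without a bacterial counterpart, read 9.48, 9.55 and 9.46 in Rptor-/- DN3a arrays, against 9.003, 9.20 and 9.34 in WT arrays. Its arrays did not overlap, and the difference of 0.32 had a limma adjusted p of 0.254. Mrpl48 had a difference of 0.20 (adjusted p = 0.428). The lowest difference was that of Mrps28, -0.094. On 0 members were all Rptor-/- DN3a arrays below all WT arrays, against 6.74% of all genes. Of the stage markers Dtx1 (by 1.38), Ptcra (by 0.68) and Sox13 (by 0.51) were higher in Rptor-/- DN3a cells.

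In γδ T cells 1 member, Mrps18c, was called lower, 0 were called higher, and 1.28% of all genes were called lower. Mrps18c read 8.40, 8.31 and 8.40 in Rptor-/- γδ arrays, against 8.89, 8.996 and 8.62 in WT arrays. The genotypes did not overlap, WT array 3 was the nearest to the Rptor-/- arrays, and the difference was -0.46 ± 0.105 (SE; limma adjusted p = 0.0183). The call was lost without Rptor-/- array 2, WT array 1 or WT array 2, and its second probe set read -0.093. Mrps22, a small-subunit protein without a bacterial counterpart, had a difference of -0.37 (adjusted p = 0.0738) and Mrps5 one of -0.31. The second Mrps5 probe set read -0.065. Mrps2 (0.23), Mrpl27 (0.18) and Mrps10 (0.15) lay on the other side and were not called.

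As a group the members lay near the WT level in γδ T cells. Their median difference was -0.015, with 41 below 0 and 30 above, and at an unadjusted p under 0.05 there were 8 lower and 0 higher, with 7.21% of all genes lower and 9.05% higher. The Rptor-/- γδ arrays averaged -0.063, -0.035 and -0.016 from the WT mean and the WT arrays 0.027, 0.035 and -0.062, so they overlapped. On 12 members all Rptor-/- arrays read below all WT arrays, against 8.78% of all genes. The proliferation marker Mki67 was lower in Rptor-/- γδ T cells (difference -0.74, limma adjusted p = 0.00347), as were Cd8b1 (-1.72, 1.03e-04), Cd8a (-0.53, 0.0373) and Cd24a (-0.33, 0.0433), so that 4 of the 5 ISP markers fell. Their mean log2 level lay between 7.87 and 8.09 in Rptor-/- γδ arrays and between 8.55 and 8.68 in WT γδ arrays. Il2rb (by 0.52, 0.0409) and Dtx1 (by 0.57, 0.00342) were higher in Rptor-/- γδ T cells. The part of these markers in the γδ values was not tested.

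The genotype effects were then compared between populations by interaction terms. The ISP effect was lower than the DN3a effect for 32 of 71 members, with 4.12% of all genes called lower in that comparison, and 0 members called higher. It was lower than the γδ effect for 18 members, with 3.63% of all genes called lower. All of these members were among the 52 called lower in ISP cells, and 17 were shared by both interactions. Between γδ and DN3a cells the effects differed for 0 members in limma, with 0.6% of all genes called in either direction; 3 members were lower and 0 higher at an unadjusted p under 0.05, with 4.67% of all genes lower and 4.63% higher. Both ISP interactions share the ISP arrays and cross the 2 sets of arrays with unlike medians. The effects were compared as differences within each set. A part of the set in these interactions cannot be told apart from one of ISP cells.

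Mrpl36 had the largest interaction of any member, at -1.003 against DN3a and -0.96 against γδ T cells. Its own DN3a and γδ differences were -0.018 and -0.060. In DN3a cells it read 8.75, 9.06 and 8.93 in Rptor-/- arrays, against 8.89, 8.99 and 8.91 in WT arrays, with full overlap. Next in size against DN3a cells were Mrps18b (-0.84), Mrpl32 (-0.83), Mrpl54 (-0.82), Mrpl20 (-0.81) and Mrpl12 (-0.80). The call of Mrpl32 there, chosen for mention after its value was seen, was lost on leaving out any of 7 of 13 arrays. Against γδ T cells Mrps18b (-0.93) and Mrpl12 (-0.91) came next. Mrpl12 read 7.13, 7.21 and 7.23 in Rptor-/- DN3a arrays, against 7.13, 7.20 and 7.25 in WT arrays, and 6.88, 7.14 and 6.96 in Rptor-/- γδ arrays, against 7.08, 6.86 and 6.73 in WT γδ arrays. Thus, with the probe set used, its low values in Rptor-/- cells were found on the ISP arrays. The second Mrpl12 probe set had differences of -0.13 in DN3a and -0.19 in γδ T cells, each with an SE of 0.108. Mrpl28 (-0.67 against DN3a) and Mrpl46 and Mrps34 (-0.67 and -0.62 against γδ) were also among the members with the smallest p.

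Some members also differed between WT γδ T cells and WT DN3a cells, in both directions. Of 71 members 12 (16.9%) were lower in WT γδ T cells and 4 (5.63%) higher. Over all genes 12.3% were called lower and 12.7% higher, so calls were not particular to the members. The median of the members was -0.078. Mrpl52 read 10.09, 10.06 and 9.83 in WT γδ arrays, against 9.003, 9.20 and 9.34 in WT DN3a arrays, with no overlap and a difference of 0.82 ± 0.11 (SE; limma adjusted p = 8.67e-06). The other higher members were Mrps23 (0.47), Mrpl4 (0.34) and Mrps5 (0.33). The second Mrps5 probe set averaged 5.31 in WT γδ T cells and 5.25 in WT DN3a cells, so it showed little of this difference. Mrpl23, which lies at the exit of the peptide tunnel, read 9.77, 9.78 and 9.77 in WT γδ arrays, against 10.22, 10.40 and 10.40 in WT DN3a arrays, with no overlap and a difference of -0.57 (adjusted p = 2.36e-05). Mrpl50 (-0.53), Mrps18b, Mrpl3 and Mrps28 (each -0.39), Mrps25 and Mrpl17 (each -0.35) and Mrpl49 (-0.33) were the next lower. Of the 16 calls 9 held whichever array was left out, and without WT DN3a array 3 the number of lower members was 6 where it had been 12.

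Some of the genes that act with the mitochondrial ribosome changed in ISP cells too. Of the 3 measured ribosomal proteins without an Mrp symbol, Gadd45gip1 fell by 0.31 (limma adjusted p = 0.0239), and Dap3 (-0.17) and Ptcd3 (-0.12) were not called. The call of Gadd45gip1 was lost without Rptor-/- array 3 or WT array 3. Among 13 translation factors 4 were lower and 0 higher. The elongation factor Tufm, which brings aminoacyl-tRNA to the ribosome, read 7.41, 7.50 and 7.30 in Rptor-/- ISP arrays, against 8.04, 8.13, 7.95 and 8.02 in WT arrays. It showed no overlap and a difference of -0.63 (adjusted p = 6.88e-06). Its exchange factor Tsfm (-0.65), the translocase Gfm1 (-0.54) and the release factor Mtrf1 (-0.53) were the other lower ones. The median of the list was -0.012, and the other 9 factors were not called.

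Among 26 assembly and ribosomal RNA factors 4 were lower (Mpv17l2, -0.64; Rcc1l, -0.46; Fastkd2, -0.40; Rbfa, -0.32) and 0 higher, with a median of -0.077. The call of Rcc1l was lost without Rptor-/- array 2 or 3 or WT array 1 or 2, and that of Fastkd2 without Rptor-/- array 3. Among 14 genes of mitochondrial transcription and RNA processing, Tfb2m, a subunit of the transcription initiation complex (-0.49), Prorp (-0.40) and Elac2 (-0.38), which cut transfer RNAs from the transcripts, were lower, and Mterf2 was higher (0.42). The call of Mterf2, whose genotypes overlapped, was lost without any of 4 of the 7 arrays (Rptor-/- arrays 2 and 3, WT arrays 1 and 2). That of Tfb2m was lost without Rptor-/- array 2 or 3 or WT array 1, and that of Prorp without Rptor-/- array 3 or WT array 2 or 3. Tfam (-0.16) and the polymerase Polrmt (0.025) were not called. Of 8 regulators of mitochondrial gene expression, the coactivator gene Pprc1 was lower in Rptor-/- ISP cells (-0.43, limma adjusted p = 0.00408). In γδ T cells Pprc1 (0.43, limma adjusted p = 0.0236) and Myc (0.42, 0.0345) were higher. Each of these 2 calls was lost on leaving out any of 4 of the 6 γδ arrays (Rptor-/- array 3, WT arrays 1 and 3, and Rptor-/- array 1 for Pprc1 or 2 for Myc), with an adjusted p of up to 0.109 for Pprc1 and 0.146 for Myc.

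The respiratory complex I genes, whose mitochondrial partners the mitochondrial ribosome makes, were lower in 21 of 32 cases in ISP cells (65.6%), with a median of -0.29. In γδ T cells 1 of 32 was called lower, with a median of -0.11. Cytosolic ribosomal proteins were lower in 11 of 63 cases in ISP cells (17.5%), with a median of -0.053, and 0 were called in DN3a or γδ T cells. Shares of lists are descriptions beside the 6.57% of all genes, and the lists were not tested against each other. Among the 8427 genes without tied ISP values 19.3% were called lower. The shares of cytosolic ribosomal proteins and of assembly factors (15.4%) lay above 6.57% but not above 19.3%. Between WT γδ and DN3a cells, 9 of the 14 transcription and RNA genes were lower in γδ T cells, among them Tefm (-1.24), and 0 higher. Over all genes 12.3% were called lower and 12.7% higher there. The assembly factors (7 lower and 4 higher), translation factors (3 and 2), regulators (3 and 1) and complex I genes (2 and 4) were divided. So were the mitochondrial ribosomal protein genes. Of the 63 cytosolic ribosomal protein genes 5 were lower and 0 higher.

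**Figure D5:**
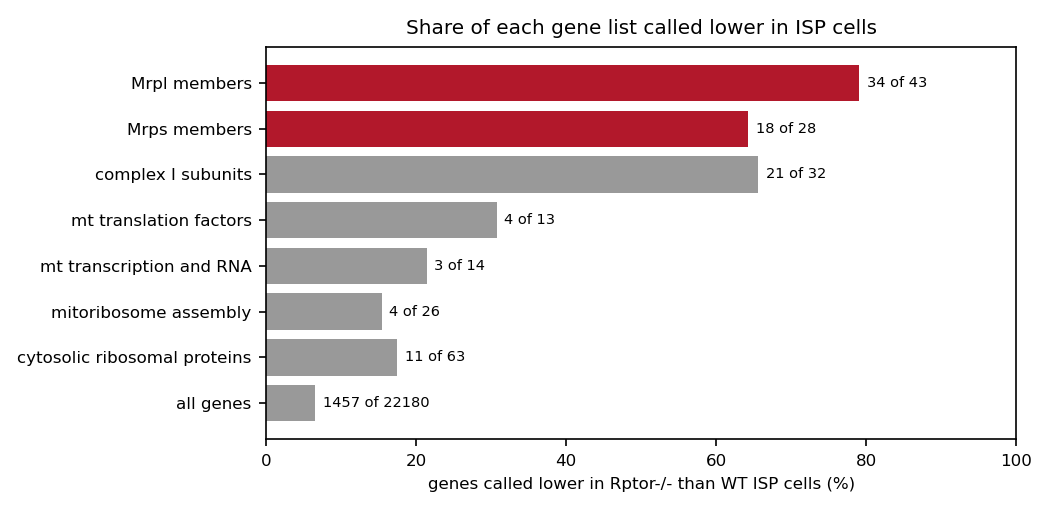
Percent of the measured genes of each list called lower by limma in Rptor-/- than in WT ISP cells, with counts beside the bars; mitochondrial ribosomal protein genes in red and other lists in grey. Mrpl genes (34 of 43), complex I subunits (21 of 32) and Mrps genes (18 of 28) have the highest shares and all genes the lowest (1457 of 22180). Among the 8427 genes without tied ISP values 19.3% were called lower.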

How the data were processed

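The deposited values were log2 signals per probe set of 19 arrays, made by the authors with RMA in Partek 6.6, per the submitters' processing notes. No source names the arrays normalized as 1 set, and the medians fall into 2 sets. The annotation gave 1 symbol to 23521 of 41345 probe sets, several to 1814 and none here to 16010. Symbols were updated by Entrez ID with RefSeq (GRCm38.p6). Values were used without a filter. The test was limma (version 3.58.1, R 4.3.3), as 1 model of 6 group means over all 19 arrays (lmFit, eBayes), with Benjamini-Hochberg adjustment over 22180 genes at 0.05, after a test on simulated data; every adjusted p is limma's. The number of arrays limits the precision: within groups the median SD over genes was 0.0883 to 0.117.

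The members and lists were chosen with earlier results of these data known. Named members were, by rule, the 8 with the largest called difference per direction, up to 3 of smallest p where fewer than 3 were called, the 5 of smallest p per interaction, and 8 by role. Promoters are RefSeq's. Alternatives covered centring, quantile normalization, limma options, probe set choice, low signal, a replicate block, arrays used and leaving out each array. Python 3.11.15 with matplotlib 3.10.9 drew the figures.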

Additional observations from a re-analysis of the deposited data

Results flagged for a closer look

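In WT ISP cells 1 of the 4 arrays stood far from the other 3 for 5 members and Rptor, of 72 genes tested; chance alone sets apart about 1 in 20 groups of this size. Mrpl1 read 6.66 on array 3, with the other arrays all at 6.37, and Mrps10 read 6.62 on array 3, with the others all at 6.25. Mrps26 read 7.77 on array 1, with the others all at 7.74. These 3 genes have identical values on 3 WT arrays, so a small gap is enough. Mrpl37 read 8.21 on array 3 (others 7.95 to 7.97), Mrpl3 7.97 on array 2 (others 7.77 to 7.80) and Rptor 6.34 on array 3 (others 6.47 to 6.49).

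The genotype effect differed between populations by limma's interaction term for 32 members between ISP and DN3a cells and for 18 between ISP and γδ T cells, lower in ISP cells each time. Against DN3a cells the named differences of effects were -1.003 for Mrpl36, -0.84 for Mrps18b, -0.81 for Mrpl20, -0.80 for Mrpl12 and -0.67 for Mrpl28. Against γδ T cells they were -0.96 for Mrpl36, -0.93 for Mrps18b, -0.91 for Mrpl12, -0.67 for Mrpl46 and -0.62 for Mrps34.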

How the results depend on the processing

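Of the named genes' values under alternatives, 944 kept their side of the threshold, 17 fell below it and 6 passed it, and 0 changed direction while called. The 944 can include genes called in neither fit whose sign changed. Of the summary values 376 stayed, 37 moved and 16 fell below the threshold. Counts and medians were taken as staying when they changed within a preset margin, so they need not be equal. ISP members called lower numbered 32 with the 7 ISP arrays alone, where 1313 genes were called in place of 2759, and 52 of 59 without tied genes, an alternative chosen after seeing the data. Quantile normalization gave an ISP median of -0.31 and, against γδ T cells, a median of -0.27 with 9 lower members. Centring each array gave interaction medians of -0.52 (DN3a) and -0.44 (γδ), where all genes moved to -0.11 and -0.085, and 1783 lower and 996 higher calls in ISP cells. Mrpl24 alone was called higher in ISP cells (1 member) with the trend and robust options and without low-signal genes. The large minus small median in ISP cells was -0.094 with probe sets averaged, -0.041 with quantile normalization, -0.037 by place and -0.036 without tied genes, and leaving out 1 array gave -0.11 to -0.042 there and -0.028 to 0.017 in γδ T cells.

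In γδ T cells lower members numbered 2 without low-signal genes, 2 with quantile normalization, 0 with probe sets averaged, 0 with the γδ arrays alone and 0 to 2 with 1 array left out. Rptor in γδ T cells missed the threshold when arrays were centred (-0.27) or fitted alone (-0.30), and with 1 array left out (-0.33 to -0.27). In ISP cells it did so fitted alone (-0.24), and leaving out 1 array gave -0.31 to -0.18. Leaving out 1 array gave 21 to 35 lower members between the ISP and DN3a effects (21 without DN3a Rptor-/- array 2, DN3a WT array 1 or ISP Rptor-/- array 3), 10 to 18 between ISP and γδ (10 without ISP Rptor-/- array 3, 11 without γδ WT array 3), and 6 to 14 between WT γδ and DN3a cells, with a γδ minus DN3a median of -0.13 to -0.028.

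Whether replicate numbers mark pairs of arrays is not known here, and the main model used no pairing. Deviations of same-numbered arrays correlated at 0.099, 0.025 and -0.013 in ISP cells, 0.24, 0.013 and 0.17 in DN3a cells and -0.10, -0.0030 and -0.017 in γδ T cells. Different-numbered arrays correlated between -0.13 and 0.081 in ISP cells and between -0.10 and 0.12 in γδ T cells. In DN3a cells they correlated between -0.25 and 0.11, below the 0.24 and 0.17 of same-numbered arrays. With the replicate number as a block, 47 members were lower in ISP cells and 2 in γδ T cells, 6 were lower and 2 higher between WT γδ and DN3a cells, and Rptor missed the threshold in ISP (-0.23) and γδ T cells (-0.30).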
